A study of Homo sapiens with 6 samples.

Results

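Aminoacyl-tRNA synthetases were followed with and without reduced ZCCHC24 in MDA-MB-435, a human cell line that the labels call breast and that is widely held, as background, to derive from melanoma. The members were the rows of the deposited table whose gene symbol was on a list of 38, and all 38 were found, once each, among 57150 genes. They are 20 cytosolic synthetase genes, 16 mitochondrial synthetase genes, whose symbols end in 2, and AIMP1 and AIMP2, which are no synthetases but the scaffold proteins of a cytosolic complex. AIMP2 ends in 2 without being mitochondrial, so the scaffold genes were kept apart. There were 3 control libraries (ZCCHC24 CTRL) and 3 knockdown libraries (ZCCHC24 KD) of the same line, with no treatment, time or clone named in the labels. The sources used here do not say how ZCCHC24 was knocked down. Each library gave 1 FPKM value per gene, a fragment number scaled by transcript length and by the size of the library. Separate cultures are not mentioned in the labels, and the p-values therefore reflect only a spread among libraries that may be technical.

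As background, an aminoacyl-tRNA synthetase joins an amino acid to its matching tRNA and so supplies the ribosome with charged tRNA. Cytosolic and mitochondrial translation use separate enzymes for most amino acids, all encoded in the nucleus, while GARS and KARS each encode the enzyme of both compartments. In the cytosol, DARS, EPRS, IARS, KARS, LARS, MARS, QARS and RARS are bound into a multisynthetase complex together with AIMP1, AIMP2 and EEF1E1. Many cytosolic synthetase genes are known targets of ATF4, the transcription factor of the amino acid and integrated stress response.

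ZCCHC24 itself measured 12.7, 12.3 and 13.2 FPKM in controls against 1.54, 1.69 and 1.81 FPKM in knockdown libraries, and each knockdown library was below each control, as labelled (-2.36 ± 0.075 on log2(FPKM + 1), limma adjusted p 1.5e-07, exact two-sided permutation p = 0.1, the smallest that 3 against 3 allows). Of the 13343 genes tested, whose mean FPKM reached 1, 72.4% passed a limma adjusted p of 0.05 (4937 higher, 4730 lower), and in 75.9% the groups did not overlap (38.7% higher, 37.2% lower). Among the 11059 genes at or above the mean level of the lowest member, 76.5% passed (38.8% higher, 37.7% lower). The steps between low values put the relative depths of the libraries within 1.26 of each other, while the absolute depth is unknown. All 8 melanocyte markers were present, among them MLANA at 172 ± 5.94 FPKM in the controls (SD, n = 3). Of the breast epithelial markers, GATA3 and ESR1 were below 1 FPKM and were not tested. The highest breast epithelial markers in the controls were KRT18 at 70.4 FPKM and KRT8 at 27.5 FPKM. The melanocyte markers moved with the groups: 7 of 8 fell, most of all PMEL (-2.14), TYRP1 (-1.72) and MLANA (-0.81), and their summed level was 2152 to 2253 FPKM in the controls and 1486 to 1551 FPKM after knockdown. The 9 breast epithelial markers summed to 101 to 120.3 FPKM in the controls and 142 to 153 FPKM after knockdown. Of the 7 breast epithelial markers tested, KRT8 (0.69) and KRT18 (0.36) were higher and 5 did not pass, with a median change of -0.09. No marker of either list was at 0 in any library. The part of such shifts in the results on synthetases was not tested, and in bulk RNA fewer cells of a type and less RNA per cell cannot be told apart.

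In the controls, the cytosolic genes lay between 32.01 FPKM (FARSB) and 170.3 FPKM (QARS), with a median of 81.6 FPKM, and the mitochondrial genes between 4.44 FPKM (PARS2) and 67.6 FPKM (IARS2), with a median of 20.8 FPKM. All comparisons of levels between genes are on the FPKM scale, which is per length, and a mean level is given ± SD (n = 3). In the controls 14 of 16 mitochondrial genes were below the lowest cytosolic synthetase, and after knockdown 8 of 16. That lowest gene was FARSB in both groups, and it fell itself, from 32.01 to 20.3 FPKM, so the count has a moving reference. The median coefficient of variation of a member among its 3 libraries was 4.89% in the controls and 3.85% in the knockdown, with maxima of 10.02% for EPRS in the controls and 15.5% for EARS2 in the knockdown. Every member had a mean above 1 FPKM, no library listed a member at 0, and all 38 were tested.

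**Figure D1:**
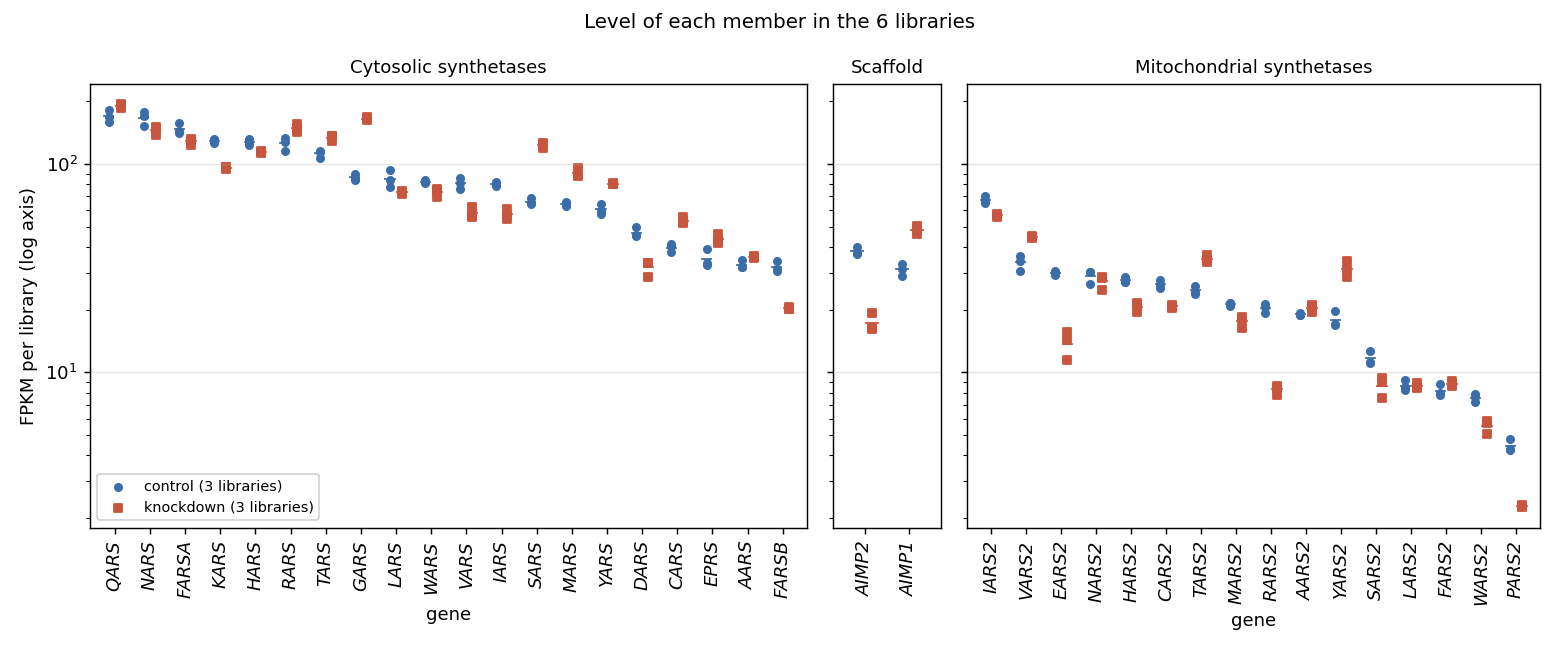
FPKM of each of the 38 members in every library (log axis), with 3 controls as blue circles, 3 knockdown libraries as red squares and short lines for the means, ordered by control mean within each group. GARS and SARS stand out among the cytosolic genes by rising past their neighbours, and RARS2, EARS2 and PARS2 among the mitochondrial ones by falling, with RARS2 going from 20.4 to 8.28 FPKM.

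After knockdown the cytosolic synthetases were divided evenly, with 10 genes higher and 10 lower of 20, whereas 9 of 16 mitochondrial synthetases fell, 3 rose and 4 did not pass. These counts are to be read against 37.0% of all tested genes called higher and 35.4% called lower. The median log2 fold change, always knockdown minus control on log2(FPKM + 1) and given ± its standard error for single genes, was -0.02 for the cytosolic genes and -0.25 for the mitochondrial genes, beside 0.01 over all tested genes. Most changes were modest: 4 cytosolic and 4 mitochondrial genes passed with a change of at least 0.5 in size, as 40.4% of all tested genes did, and only RARS2, EARS2 and AIMP2 among the 38 passed with a change of at least 1, as 12.1% of all tested genes did. The groups did not overlap for any of the 20 cytosolic genes, for the pair of scaffold genes or for 13 of 16 mitochondrial genes. Over all tested genes they did not overlap in 75.9%. Whether the cytosolic and mitochondrial groups differ was not tested, since genes are not replicates. The difference of their medians was 0.23, with a range of 0.20 to 0.27 over the 3 knockdown libraries taken singly.

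**Figure D2:**
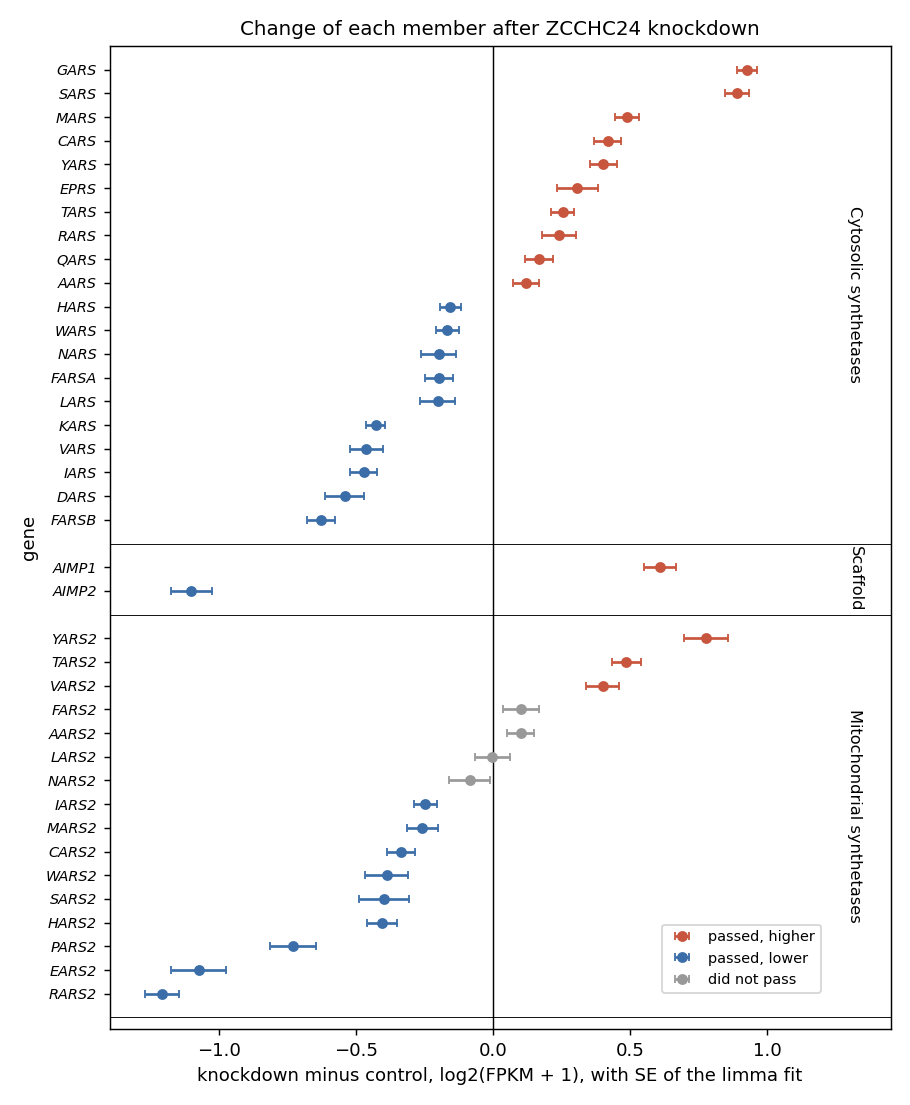
Change of each member (knockdown minus control on log2(FPKM + 1), points, with the standard error of the limma fit as bars), coloured by whether the adjusted p was below 0.05. The 20 cytosolic genes spread evenly around 0 from -0.63 to 0.93, while the mitochondrial genes extend to -1.21 and only 3 of them passed on the higher side.

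The largest rises among the cytosolic enzymes were those of GARS and SARS. GARS (ENSG00000106105; listed locus hg19 chromosome 7, 30536236 to 30673649), the glycyl-tRNA synthetase of cytosol and mitochondria, was at 85.9, 89.3 and 84.1 FPKM in the controls and at 163, 164 and 168 FPKM after knockdown. The knockdown values were close together and lay far above every control, a rise of 1.91-fold with a log2 fold change of 0.93 ± 0.037 (limma adjusted p 3.5e-07). SARS (ENSG00000031698; hg19 chromosome 1, 109756539 to 109780791), the seryl-tRNA synthetase, went from 68.9, 65.3 and 64.2 FPKM to 126, 125 and 119 FPKM. It rose 1.86-fold (0.89 ± 0.043, limma adjusted p 7.6e-07), again without overlap. MARS (ENSG00000166986; hg19 chromosome 12, 57853917 to 57914300), the methionyl-tRNA synthetase and a member of the complex, was at 65.6, 63.1 and 64.9 FPKM in the controls and 95.9, 88.1 and 88.8 FPKM in the knockdown libraries, of which knockdown 1 was the highest. Its log2 fold change was 0.49 ± 0.045 (limma adjusted p 2.3e-05). Its gene overlaps DDIT3, which encodes the stress factor CHOP, on the opposite strand, in 5.05% of its exon bases in GENCODE v29. DDIT3 rose as well, from 19.99 ± 0.349 to 27.3 ± 2.40 FPKM, and the sources used here do not say whether fragments were assigned by strand.

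The other rises of cytosolic enzymes were smaller. CARS, for cysteine, went from 39.7 to 53.4 FPKM (0.42 ± 0.049, adjusted p 0.0001) in limma, YARS, for tyrosine, from 60.6 to 80.4 FPKM (0.40 ± 0.049, adjusted p 0.00012), and EPRS, which charges both glutamate and proline, from 35.1 to 43.6 FPKM (0.31 ± 0.074, adjusted p 0.0056). TARS, for threonine, went from 112 to 134 FPKM (0.25 ± 0.043, adjusted p 0.00088) and RARS, for arginine, from 126 to 148 FPKM (0.24 ± 0.061, adjusted p 0.0072). QARS, for glutamine, the most abundant member in both groups, went from 170.3 to 191 FPKM (0.17 ± 0.051, adjusted p 0.018), but missed the threshold without control 3 (adjusted p 0.056) or without knockdown 1 (adjusted p 0.057). AARS, for alanine, went from 32.8 to 35.8 FPKM (0.12 ± 0.046, adjusted p 0.043), and this call was lost without control 2 or 3 or without any 1 of the knockdown libraries, with adjusted p of 0.078 to 0.12. In each of these 7 genes every knockdown library was above every control library.

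Among the cytosolic falls the largest was that of FARSB (ENSG00000116120; hg19 chromosome 2, 223435254 to 223521056), the beta subunit of the phenylalanyl-tRNA synthetase. It was at 31.3, 30.6 and 34.1 FPKM in the controls and 20.2, 20.2 and 20.6 FPKM after knockdown, a fall of 1.57-fold (-0.63 ± 0.052, limma adjusted p 1.4e-05). The alpha subunit FARSA, its partner in a tetramer of equal parts, was more abundant and fell less, from 148 to 129 FPKM (-0.20 ± 0.051, adjusted p 0.0076). The FPKM ratio of FARSA to FARSB was therefore 4.63 ± 0.444 in the controls and 6.32 ± 0.231 in the knockdown (SD, n = 3 each, exact two-sided permutation p = 0.1), and the groups did not overlap. DARS (ENSG00000115866; hg19 chromosome 2, 136664246 to 136779888), the aspartyl-tRNA synthetase of the complex, was at 45.01, 45.7 and 49.8 FPKM in the controls and 28.7, 33.5 and 33.6 FPKM in the knockdown, where knockdown 1 was the lowest (-0.54 ± 0.071, limma adjusted p 0.00019). IARS (ENSG00000196305; hg19 chromosome 9, 94972488 to 95056038), for isoleucine, went from 78.1, 81.9 and 79.7 to 56.7, 60.9 and 54.4 FPKM (-0.47 ± 0.050, limma adjusted p 5.1e-05), again with separate groups.

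VARS, for valine, went from 80.9 to 58.4 FPKM (-0.46 ± 0.061, adjusted p 0.00019) in limma and KARS, for lysine in cytosol and mitochondria, from 129 to 95.9 FPKM (-0.43 ± 0.035, adjusted p 1.1e-05). HARS, for histidine, went from 127 to 114 FPKM (-0.16 ± 0.037, adjusted p 0.0049), and WARS, for tryptophan, from 82.4 to 73.3 FPKM (-0.17 ± 0.043, adjusted p 0.0079). LARS, the leucyl-tRNA synthetase that also takes part in leucine sensing, went from 84.7 to 73.3 FPKM (-0.20 ± 0.065, adjusted p 0.021), with adjusted p of 0.063 without knockdown 1 and 0.061 without the filter on low values. NARS, for asparagine, went from 167 to 145 FPKM (-0.20 ± 0.064, adjusted p 0.022) and did not pass without control 2, control 3 or knockdown 3 (adjusted p 0.063, 0.075 and 0.077) or without the filter (adjusted p 0.066). The calls of LARS and NARS are thus the least firm of the cytosolic falls.

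The scaffold genes moved apart. AIMP1 (ENSG00000164022; hg19 chromosome 4, 106965473 to 107270383) was at 29.2, 31.5 and 33.2 FPKM in the controls and 46.2, 50.3 and 48.1 FPKM in the knockdown libraries, a rise of 1.54-fold (0.61 ± 0.058, limma adjusted p 2.9e-05). AIMP2 (ENSG00000106305; hg19 chromosome 7, 6048875 to 6098861), which holds the core of the complex together, went from 39.95, 36.8 and 37.6 to 16.2, 16.3 and 19.3 FPKM, a fall of 2.21-fold (-1.10 ± 0.074, limma adjusted p 4.0e-06). The ratio of AIMP1 to AIMP2 went from 0.823 ± 0.0815 to 2.81 ± 0.301 (SD, n = 3 each, exact two-sided permutation p = 0.1), so that AIMP2 was the higher in each control and AIMP1 in each knockdown library. AIMP2 shares 28.9% of its exon bases with EIF2AK1, a kinase of the stress response on the opposite strand, which fell too, from 62.1 to 45.6 FPKM (-0.44 ± 0.040, adjusted p 2.4e-05). AIMP1 shares 11.6% of its exon bases with TBCK on the opposite strand, which rose too (0.35 ± 0.11, limma adjusted p 0.02). EEF1E1, the third scaffold protein of the complex and no member, went from 58.9 to 64.3 FPKM (0.13 ± 0.048, adjusted p 0.045). Of the 8 synthetases of the complex 4 rose and 4 fell (median -0.02), and of the 12 others 6 rose and 6 fell (median -0.02). Over all tested genes 37.0% were called higher and 35.4% lower.

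Summed over the 8 enzymes of the complex, FPKM were 737 ± 9.60 in the controls and 732 ± 6.28 in the knockdown (SD, n = 3), with overlapping libraries. The 12 other cytosolic enzymes summed to 1035 ± 1.88 and 1132 ± 11.3 FPKM, and every knockdown library was above every control. Of the gain of 92.3 FPKM over all 20 cytosolic genes, GARS made up 78.6 and SARS 57.2 FPKM, and the other 18 genes together fell by 43.4 FPKM. The 16 mitochondrial enzymes summed to 358 ± 4.25 FPKM in the controls and 330.5 ± 3.87 FPKM after knockdown. These sums depend on scaling, since all FPKM of a library summed to 717545 to 733644 in the controls and 681922 to 696942 in the knockdown. As a share of all FPKM, chosen after seeing the data, the complex took 0.0991% to 0.104% in the controls and 0.105% to 0.107% after knockdown, so that the libraries no longer overlapped. The share of the other cytosolic enzymes was also higher after knockdown (0.141% to 0.144% against 0.164%), and that of the mitochondrial enzymes stayed lower (0.0488% to 0.0503% against 0.0468% to 0.0486%). The ratio of the cytosolic to the mitochondrial sum, which does not depend on it, was 4.95 ± 0.07 in the controls and 5.64 ± 0.09 after knockdown.

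**Figure D3:**
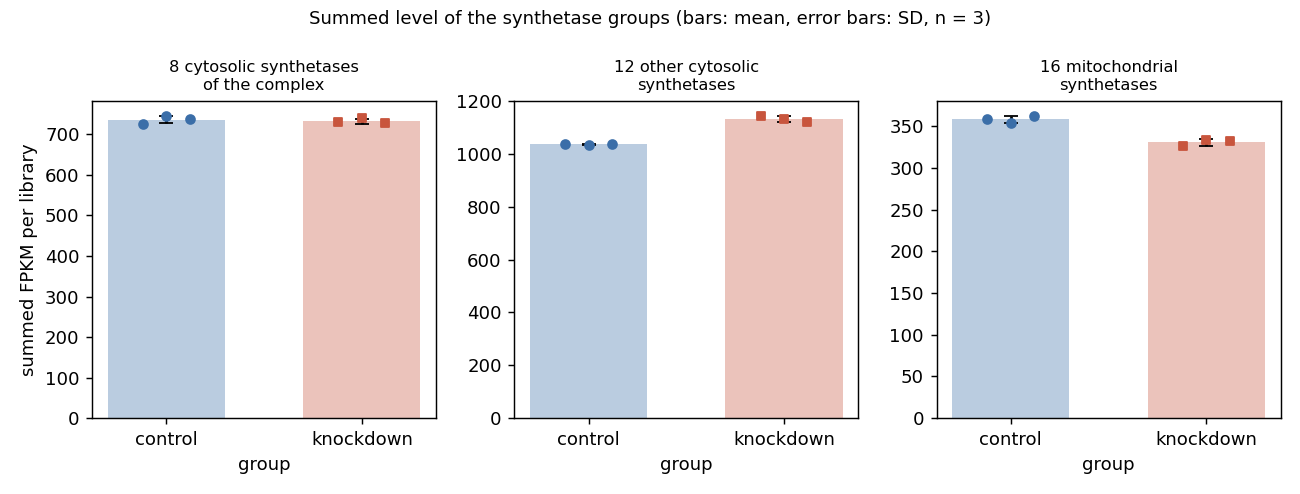
Summed FPKM per library (points) for the 8 cytosolic synthetases of the complex, the 12 other cytosolic synthetases and the 16 mitochondrial synthetases, with the mean as a bar from 0 and the SD as an error bar (n = 3). On this scale the sum of the complex lies between 726.8 and 746 FPKM in both groups together, that of the other cytosolic genes is higher after knockdown and that of the mitochondrial genes is lower.

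Among the mitochondrial enzymes the largest falls were those of RARS2, EARS2 and PARS2. RARS2 (ENSG00000146282; hg19 chromosome 6, 88224095 to 88299721), for arginine, was at 20.5, 19.4 and 21.4 FPKM in the controls and 8.57, 8.44 and 7.82 FPKM after knockdown. It fell 2.47-fold, the largest change of all 38 members (-1.21 ± 0.061, limma adjusted p 9.7e-07). EARS2 (ENSG00000103356; hg19 chromosome 16, 23533334 to 23585710), for glutamate, which in mitochondria also starts the indirect route to glutaminyl-tRNA, went from 30.7, 29.2 and 29.6 to 11.4, 15.6 and 14.2 FPKM. Knockdown 1 was the lowest, and all 3 were far below the controls (-1.07 ± 0.10, limma adjusted p 2.5e-05). PARS2 (ENSG00000162396; hg19 chromosome 1, 55222570 to 55230187), for proline, the member with the lowest level, went from 4.25, 4.29 and 4.80 to 2.29, 2.25 and 2.30 FPKM (-0.73 ± 0.085, limma adjusted p 9.5e-05), and the pseudocount of 1 FPKM shrinks its log2 change, as the ratio of means was 1.95.

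The other mitochondrial falls lay between -0.25 and -0.41 on the log2 scale. HARS2, for histidine, went from 27.7 to 20.7 FPKM (-0.41 ± 0.055, adjusted p 0.00023) in limma, SARS2, for serine, from 11.7 to 8.64 FPKM (-0.40 ± 0.092, adjusted p 0.0045), and WARS2, for tryptophan, from 7.55 to 5.54 FPKM (-0.39 ± 0.077, adjusted p 0.002). CARS2, for cysteine, went from 26.5 to 20.7 FPKM (-0.34 ± 0.051, adjusted p 0.00043), MARS2, for methionine, from 21.2 to 17.6 FPKM (-0.26 ± 0.058, adjusted p 0.0039), and IARS2, for isoleucine and the most abundant of the group, from 67.6 to 56.7 FPKM (-0.25 ± 0.042, adjusted p 0.0009). In these 6 genes every knockdown library was below every control library. A longer transcript, AC011455.2 of GENCODE v29, runs through SARS2 on the same strand and holds 63.5% of the SARS2 words of 32 bases. AC011455.2 was not matched to a row of the deposited table, and the annotation used for that table is not given. The value of SARS2 may therefore depend on how fragments were assigned, which was not tested.

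YARS2, TARS2 and VARS2 rose. YARS2 (ENSG00000139131; hg19 chromosome 12, 32832133 to 32908836), for tyrosine, was at 16.9, 17.03 and 19.6 FPKM in the controls and 30.9, 28.7 and 34.3 FPKM in the knockdown libraries, a rise of 1.75-fold with knockdown 3 the highest (0.78 ± 0.081, limma adjusted p 5.0e-05). TARS2 (ENSG00000143374; hg19 chromosome 1, 150459886 to 150480078), for threonine, went from 26.1, 24.3 and 23.8 to 36.5, 34.7 and 33.8 FPKM (0.48 ± 0.053, limma adjusted p 6.5e-05). VARS2 (ENSG00000137411; hg19 chromosome 6, 30875960 to 30894236), for valine, went from 36.1, 34.3 and 30.8 to 44.4, 45.3 and 44.5 FPKM (0.40 ± 0.060, limma adjusted p 0.00042), with separate groups in each of the 3 genes. VARS2 shares 22.0% of its exon bases with GTF2H4 on the same strand, and GTF2H4 was at 22.3 ± 1.05 and 23.99 ± 2.23 FPKM without passing (limma adjusted p 0.25).

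AARS2, FARS2, LARS2 and NARS2, for alanine, phenylalanine, leucine and asparagine, did not pass. AARS2 was at 18.8, 19.2 and 18.9 FPKM in the controls and 21.1, 19.6 and 20.6 FPKM after knockdown, so its libraries did not overlap although the limma adjusted p was 0.097, and it passed when the libraries were scaled to a common median (0.13, adjusted p 0.048). FARS2 was at 8.18 ± 0.523 and 8.83 ± 0.229 FPKM (0.10 ± 0.066, limma adjusted p 0.2), NARS2 at 29.1 ± 2.19 and 27.4 ± 2.12 FPKM (-0.09 ± 0.075, limma adjusted p 0.33), and LARS2 at 8.60 ± 0.486 and 8.57 ± 0.241 FPKM (-0.004 ± 0.064, limma adjusted p 0.96). The libraries of these 3 genes overlapped.

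Set side by side by amino acid, cytosolic genes and their mitochondrial partners moved apart in some pairs and together in others. Of 16 pairs, 7 went in opposite directions with both genes passing, 5 went the same way, and in 4 the mitochondrial gene did not pass. EPRS is the partner of both EARS2 and PARS2, and FARSA was paired with FARS2, so the pairs are not independent. Pearson's r of the log2 fold changes across the 16 pairs was -0.21, a description of genes that share the same 6 libraries. Among the opposite pairs, the cytosolic gene rose in RARS and RARS2, EPRS and EARS2, EPRS and PARS2, CARS and CARS2, and MARS and MARS2. The cytosolic gene also rose in SARS and SARS2, with the limit on SARS2 given above, and fell in VARS and VARS2.

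The FPKM ratio of RARS to RARS2 was 5.62, 6.60 and 6.28 in the controls and 16.7, 18.4 and 18.8 in the knockdown libraries, the largest shift of a ratio (1.545 on the log2 scale, FPKM without a pseudocount). EPRS was close to EARS2 in the controls, at ratios of 1.06, 1.34 and 1.13, and well above it after knockdown, at 3.75, 2.96 and 2.94. The ratio of SARS to SARS2 went from 5.41, 5.87 and 5.74 to 13.4, 13.9 and 15.8, with the limit on the value of SARS2 given above. In the other direction, the ratio of VARS to VARS2 went from 2.38, 2.37 and 2.46 in the controls to 1.41, 1.23 and 1.28 in the knockdown (-0.88 on the log2 scale). The ratio of YARS to YARS2 also fell, from 3.54, 3.38 and 3.29 to 2.59, 2.78 and 2.36, although both genes rose. AARS to AARS2 overlapped, at 1.83, 1.66 and 1.70 in the controls and 1.70, 1.81 and 1.75 in the knockdown. With FARSB to FARS2 added, 17 ratios were tested by an exact two-sided permutation test over the libraries, whose smallest p of 0.1 becomes 0.121 after Benjamini-Hochberg adjustment, so this test cannot call a ratio here. A model of the ratios, which could, was not run.

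**Figure D4:**
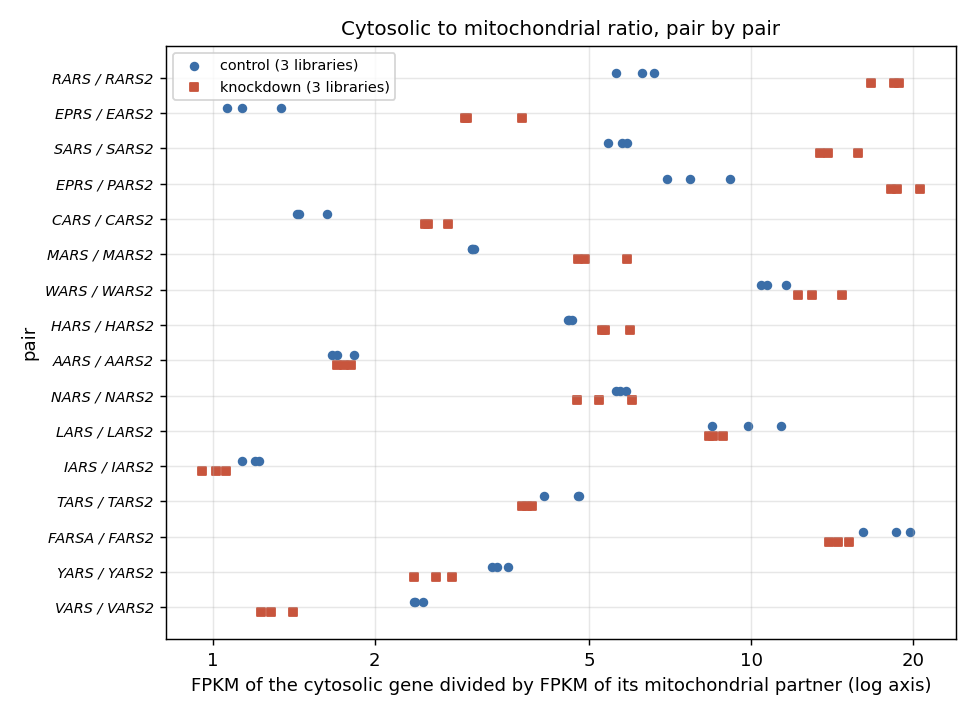
FPKM of each cytosolic gene divided by that of its mitochondrial partner in every library (log axis), with 3 controls as blue circles and 3 knockdown libraries as red squares, ordered by the shift of the ratio. Ratios of RARS, EPRS and SARS to their partners lie far to the right after knockdown, those of VARS and YARS to the left, and those of AARS, NARS and LARS overlap.

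Both directions were found among the cytosolic enzymes known as targets of ATF4. Of 12 cytosolic genes taken as ATF4-responsive from general knowledge (AARS, CARS, EPRS, GARS, IARS, LARS, MARS, NARS, SARS, TARS, WARS and YARS), 8 rose and 4 fell, beside 37.0% higher and 35.4% lower of all tested genes, and their median change was 0.28 (log2). This grouping was made with earlier results of these data known. Of the 8 others, 2 rose (QARS and RARS) and 6 fell, with a median of -0.31. The falls within the first group were IARS, LARS, NARS and WARS. ATF4 mRNA was at 293, 270.4 and 269 FPKM in the controls and 294, 286 and 284 FPKM after knockdown and did not pass (0.05 ± 0.042, limma adjusted p 0.28). This says nothing of ATF4 protein, which is known to be set mainly by translation.

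Of 29 tested genes of the ATF4 axis, ATF4 among them, 15 rose, 11 fell and 3 did not pass (median 0.16). Over all tested genes 37.0% were called higher and 35.4% lower. The largest changes were those of SESN2, a brake on mTORC1, at 2.42, of CHAC1, which degrades glutathione, at 1.98, and of PCK2, the mitochondrial PEP carboxykinase, which fell from 22.3 to 6.41 FPKM (-1.65 ± 0.068, adjusted p 3.8e-07) in limma. The following genes were chosen after their values were seen. ASNS, the asparagine synthetase and a standard ATF4 target, went from 43.1 to 55.6 FPKM (0.36 ± 0.046, adjusted p 0.00016), whereas PHGDH, PSAT1 and PSPH, the enzymes of serine synthesis, all fell, with log2 fold changes of -0.76, -0.65 and -0.46. XPOT, which exports tRNAs from the nucleus, fell from 59.3 to 39.6 FPKM (-0.57 ± 0.075, adjusted p 0.00019).

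Among 9 genes of eIF2 phosphorylation, the step upstream of ATF4, 4 rose, 4 fell and 1 did not pass. The shares over all tested genes were 37.0% higher and 35.4% lower. PPP1R15A (GADD34), a regulatory subunit of the eIF2 phosphatase and itself induced by ATF4, rose from 32.9 to 65.2 FPKM (0.97 ± 0.052, adjusted p 1.2e-06) in limma. IMPACT, an inhibitor of the kinase GCN2, fell from 10.04 to 5.08 FPKM (-0.86 ± 0.085, adjusted p 3.4e-05), and the kinase EIF2AK2 (PKR) fell from 40.7 to 25.2 FPKM (-0.67 ± 0.052, adjusted p 8.7e-06).

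Partners of the synthetases outside the members moved both ways, with 8 of 16 higher, 5 lower and 3 not passing. All tested genes were 37.0% higher and 35.4% lower. DTD1, which removes D-amino acids from tRNA, fell by 0.68 on the log2 scale (limma adjusted p 7.7e-06), and XPOT is given above. Of 24 genes of mitochondrial translation and tRNA maturation, 9 rose, 6 fell and 9 did not pass (median 0.02), to be read against the same shares. The release factor MTRF1 rose from 9.82 to 19.5 FPKM (0.92 ± 0.059, adjusted p 3.0e-06), the initiation factor MTIF3 from 16.5 to 27.9 FPKM (0.72 ± 0.075, adjusted p 5.0e-05), and the pseudouridine synthase PUS1 fell from 20.3 to 12.6 FPKM (-0.65 ± 0.073, adjusted p 7.6e-05).

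The starts of the synthetase genes were read for the letters of the C/EBP-ATF response element, the site type bound by ATF4. RefSeq windows (GRCh38.p14) of 300 bases, from 250 before to 50 after a gene's start, were found for 32 of the 38 members, matched through the Ensembl ID, and not for DARS, LARS, VARS, YARS, AARS2 and VARS2. The motif searched was TGATGNAA on both strands. It occurred in a window of 8 of the 32 members (25.0%), of which 7 were among 16 cytosolic genes and 1 among 14 mitochondrial genes, against 4.46% of all 27305 genes with a window. The 8 stretches are shown because 7 of them belong to the cytosolic enzymes compared above. Each is given 5′ to 3′ on the strand of the gene, with the match in capitals.
AARS (chr16:70289675-70289704, minus strand): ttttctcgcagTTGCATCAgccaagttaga
CARS (chr11:3057407-3057436, minus strand): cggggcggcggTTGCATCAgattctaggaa
GARS (chr7:30594834-30594863, plus strand): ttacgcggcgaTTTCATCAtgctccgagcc
IARS (chr9:92293692-92293721, minus strand): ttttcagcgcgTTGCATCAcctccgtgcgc
MARS (chr12:57488053-57488082, plus strand): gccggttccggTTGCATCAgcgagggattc
NARS (chr18:57621804-57621833, minus strand): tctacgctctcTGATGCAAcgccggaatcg
TARS (chr5:33440956-33440985, plus strand): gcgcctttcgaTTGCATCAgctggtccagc
YARS2 (chr12:32756076-32756105, minus strand): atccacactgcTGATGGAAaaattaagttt

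In 5 cytosolic genes (AARS, CARS, IARS, MARS and TARS) the same 8 letters stood on the gene's strand, and NARS carried their reverse complement. A match is a description of letters and not a site shown to be bound. The 8 genes moved both ways: AARS, CARS, GARS, MARS, TARS and YARS2 rose, IARS and NARS fell, again beside 37.0% higher and 35.4% lower of all tested genes, and their median log2 fold change was 0.34. SARS, with the second largest cytosolic rise, had windows without a match. The 7 cytosolic genes with a match divided into 5 higher and 2 lower, with a median of 0.25. The 9 cytosolic genes with a window and no match divided into 4 higher and 5 lower, with a median of -0.16.

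The E-box letters CACGTG, the site type of MYC and MAX, occurred in a window of 5 of the 32 members (15.6%), against 8.77% of all genes with a window, and no E-box overlapped a match of the other motif. All 5 genes were called lower, as were 20 of all 38 members and 35.4% of all tested genes, with log2 fold changes of -1.10 (AIMP2), -1.07 (EARS2), -0.47 (IARS), -0.34 (CARS2) and -0.26 (MARS2). The stretches are shown because they are the members that hold the letters, 3 of them mitochondrial, and the E-box is in capitals.
AIMP2 (chr7:6009478-6009507, plus strand): ccgggcgctggcCACGTGcaggtaggagcg
CARS2 (chr13:110706501-110706530, minus strand): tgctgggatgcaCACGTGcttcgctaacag
EARS2 (chr16:23557348-23557377, minus strand): cagggagaagccCACGTGtgctattccatc
IARS (chr9:92293866-92293895, minus strand): tggttcgttttcCACGTGgaggcgcaaaac
MARS2 (chr2:197705346-197705375, plus strand): atgcgcctctcaCACGTGctgtcagaacgc

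IARS held both motifs in 1 window. MYC, which is known to drive many genes of translation, fell from 57.8 to 36.7 FPKM (-0.64 ± 0.044, adjusted p 4.7e-06) in limma. Whether MYC had a part in the falls of the genes with an E-box was not tested, and no E-box was shown to be bound. Of 8 tested genes of MYC and its partners, 3 rose, 3 fell and 2 did not pass. Beside this, 37.0% of all tested genes were higher and 35.4% lower. The largest changes were rises of MXD1 at 2.59 and MXD4 at 1.72 and a fall of MXD3 at -0.94, all 3 of a family that antagonises MYC. RARS2, with the largest fall among the 38 members, had a window with neither motif.

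Several members share their start region with a neighbour read from the other strand, and these neighbours were taken by position. In GENCODE v29, 10 member and neighbour pairs had starts within 1000 bases on opposite strands. In 4 of them both genes fell, in 1 both rose, in 3 they went in opposite directions, and in 2 a gene did not pass. Single genes were called higher in 37.0% and lower in 35.4% of all tested genes. RARS2 and ORC3, a subunit of the origin recognition complex, start 64 bases apart, and ORC3 fell from 14.2 to 7.55 FPKM (-0.84 ± 0.092, adjusted p 6.6e-05) in limma. SARS2 and MRPS12, a protein of the mitochondrial ribosome, both fell, MRPS12 from 67.9 to 49.8 FPKM (-0.43 ± 0.081, adjusted p 0.0014). HARS and HARS2, which lie head to head and carry the enzymes of cytosol and mitochondria, both fell (-0.16 and -0.41). SARS2 shares 10.8% of its exon bases with MRPS12, and HARS2 shares 11.7% with HARS, each on the opposite strand. The values within these pairs may therefore not be independent. AIMP2 fell along with PMS2, a mismatch repair gene, at -0.35.

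In the pairs that parted, EARS2 fell while UBFD1 rose from 40.2 to 63.8 FPKM (0.66 ± 0.043, adjusted p 3.4e-06) in limma, KARS fell while TERF2IP, a telomere protein, rose from 51.6 to 115 FPKM (1.14 ± 0.041, adjusted p 2.2e-07), and CARS2 fell while ING1 rose from 8.27 to 13.9 FPKM (0.69 ± 0.078, adjusted p 8.2e-05). AARS and DDX19B, an RNA helicase of mRNA export, both rose, DDX19B by 0.54. The listed loci were wider than single genes for 29 of the 38 members, which shared their locus with another row of the table, and HARS and HARS2 shared 1 locus. Exon bases were shared with another gene at 1 FPKM or more by 15 members, so values of such genes depend on how overlapping fragments were assigned.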

How the data were processed

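RNA-seq was analysed from 3 control and 3 ZCCHC24 knockdown libraries of MDA-MB-435 cells, grouped by title. Per the labels' protocols, a stranded mRNA kit and paired-end reads were used. The authors deposited 1 table of FPKM values, per the file headers, and the submitters' processing notes list hg19, TopHat 1.4.1 and Cuffdiff 2.2.0, with no roles. The sources used here give neither the annotation nor the scaling of libraries, and 1 row without a gene was left out.

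Genes whose mean FPKM reached 1 were kept, and log2(FPKM + 1) was fitted with limma 3.58.1 in R 4.3.3 (empirical Bayes with a mean-variance trend, two-sided, Benjamini-Hochberg adjustment over 13343 genes, threshold 0.05). A fold change on this scale understates the change of weak genes. The fit was tested on simulated data. Members, gene lists and groupings were chosen with earlier results of these data known. Named in full were the 3 largest called rises and falls in each compartment and both scaffold genes, and, from each list, the 3 largest called changes plus ATF4 and MYC. Other genes that this rule names are not reported here. Overlaps, start distances and shared words came from GENCODE v29 (GRCh38), whose coordinates were not mixed with those of the table, and promoter windows from RefSeq. Refits left out each library or the filter, raised the filter to 5 FPKM, lowered the pseudocount to 0.1, scaled libraries to a common median, weighted libraries, or added a replicate block, and GARS and KARS were left out of their group. Count models and counting intervals do not apply to FPKM, and absolute depth is unknown.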

Additional observations from a re-analysis of the deposited data

How the results depend on the processing

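In the 12 refits, 32 of the 38 members kept their call and direction wherever they were tested, and PARS2 was not tested at the filter of 5 FPKM. The replicate block (labels do not say that numbers pair the libraries, and same-numbered deviations correlated at -0.03, -0.07 and 0.02) left the call of all 38 members as it was, with 10 cytosolic genes higher and 10 lower, 3 mitochondrial genes higher and 9 lower, and ZCCHC24 at -2.36, and it called 4971 genes higher and 4773 lower in all. Without the filter LARS and NARS missed the threshold, leaving 8 cytosolic falls. With 1 library left out, 8 to 10 cytosolic genes were higher and 9 to 10 lower, while the mitochondrial counts stayed at 3 and 9. The difference of the medians ran from 0.211 to 0.272 over these refits, with 0.272 without control 1, a move larger than the SD of 0.031 between knockdown libraries. LARS2, at -0.004, turned to 0.023 under median scaling, to 0.009 with sample weights, and ran from -0.034 to 0.036 with 1 library left out, never near the threshold. As a share of all FPKM, added after seeing the data, the log2 change of the complex sum went from -0.008 to 0.062, that of the other cytosolic sum from 0.128 to 0.199 and that of the mitochondrial sum from -0.116 to -0.045. The causes were not tested. No member symbol had a second row, so summing repeated rows changed nothing. Absolute depth is unknown, so the pseudogenes listed at 0 may lie below what these libraries could show.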

Other observations

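WARS is also induced by interferon gamma, as background, and genes known to share that response moved both ways. Among 7 tested, 3 were called higher and 1 lower (median -0.03), beside 37.0% higher and 35.4% lower of all tested genes. GBP1, a guanylate-binding protein, went from 6.69 to 8.13 FPKM (0.25 ± 0.084, adjusted p 0.026) in limma, and GBP2 from 9.80 to 23.6 FPKM (1.19 ± 0.053, adjusted p 5.2e-07). PSMB9, a subunit of the immunoproteasome, fell from 41.4 to 18.1 FPKM (-1.15 ± 0.050, adjusted p 4.7e-07). WARS itself went from 82.4 to 73.3 FPKM.

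The table lists pseudogenes named after the members. AIMP1P1 was at 0.0921, 0.0531 and 0.0902 FPKM in controls 1 to 3 and 0, 0 and 0.168 FPKM in knockdown 1 to 3, and KARSP3 was listed at 0 except for 0.0553 FPKM in knockdown 1. The other 6 (AIMP1P2, FARSBP1, KARSP1, KARSP2, TARS2P1 and WARS2P1) were listed at 0 in all 6 libraries. Outside SARS2, at most 6.46% of a member's words of 32 bases occurred in transcripts of other genes of GENCODE v29, the value of HARS.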
